A study of Heliconius himera and Heliconius erato lativitta and Heliconius erato petiverana with 18 samples.

Results

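Hindwing mRNA was compared between 2 butterfly taxa, Heliconius himera and Heliconius erato lativitta. The members are the 3 hindwing (HW) libraries of himera and the 3 hindwing libraries of lativitta, taken by taxon, wing and number from the labels, 6 of the 18 libraries of the series. The other 12 are the forewing (FW) libraries of both taxa and both wings of H. erato petiverana. Each library is bulk RNA of whole wing tissue at 3 days after pupation, from insects raised at about 27 °C, with no treatment, genotype or sex given in the labels. Whether replicate libraries are separate animals is not stated in the labels, so p-values here reflect only how far these libraries scatter, which may be technical. Himera HW 1 stood apart from the other himera hindwings, and the comparison is given with and without it.

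Heliconius wings carry warning colours built from scales, each the product of a single epithelial cell. In the early pupa the scale cells are being laid out, and pattern genes such as optix, a transcription factor that marks future red scales, are known to be active in the wing around this time. Himera, a close relative of H. erato, has a yellow forewing band and a red hindwing bar, whereas lativitta belongs to the rayed forms, with red rays on the hindwing. The series states its aim only as an examination of mRNA abundance in these pupal wings. The files pair the gene IDs with 0 gene names, so neither these genes nor markers of wing tissue could be looked up, and IDs are given as deposited. In bulk tissue, fewer cells of a type and less RNA per cell cannot be told apart.

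The 6 libraries held 4599197 to 17002996 gene reads, 32095974 in himera HW and 16475436 in lativitta HW. Across the 9957 IDs tested, himera HW 1 had a Spearman correlation of 0.747 to 0.749 with himera HW 2 and 3, 0.732 to 0.743 with lativitta HW and 0.850 to 0.871 with petiverana HW. Himera HW 2 and 3 correlated at 0.976 with each other and at 0.907 to 0.945 with lativitta HW. These are correlations across genes of libraries counted against the same IDs, given as a description. The 10 most abundant IDs took 31.9% of gene reads in himera HW 1, 10.3% and 12.4% in himera HW 2 and 3, and 8.62% to 10.5% in lativitta HW. Reads overlapping more than 1 feature made up 0.715% in himera HW 1 and 1.44% to 1.77% in the other 5. The median standard deviation (SD) of log2 CPM within a group was 0.467 in himera HW, 0.167 in himera HW 2 and 3, and 0.260 in lativitta HW. The part of these library differences in the results below was not tested beyond the fits that leave libraries out.

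HEL_004648 and HEL_009697 were higher in himera, and HEL_014346 and HEL_007078 were lower, in each himera library against each lativitta library. These 4 IDs passed the test with and without himera HW 1. Levels are counts per 1000000 gene reads after trimmed-mean (TMM) scaling, here CPM, and differences are log2 values of himera minus lativitta from edgeR's quasi-likelihood test.

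HEL_004648 was at 653, 3532 and 7015 CPM in himera HW 1, 2 and 3, and at 22.0, 65.5 and 36.7 in lativitta HW 1, 2 and 3. The lowest himera library lay above the highest lativitta library, and himera HW 1 was the lowest of its group. Its reads alone made up 0.860% of gene reads in himera HW 3. The difference was 6.50 (SE 0.90, edgeR adjusted p = 0.00654, 3 libraries each). Leaving out himera HW 1 gave 6.99 (SE 0.74, adjusted p = 0.00127). Petiverana HW lay between the taxa, at 305.5, 429 and 247 CPM. In FW the himera libraries were at 491, 514 and 106 CPM and the lativitta libraries at 19.9, 27.6 and 26.1, a difference of 3.92 (SE 0.80, adjusted p = 0.0387). In edgeR's test of the difference between wings, HW exceeded FW by 2.58 and did not pass (adjusted p = 1). The HW call did not survive leaving out lativitta HW 1 (adjusted p = 0.0641) or lativitta HW 3 (0.0633).

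HEL_009697 had 204, 31.6 and 103 CPM in himera HW 1, 2 and 3, and 2.11, 0.490 and 0.460 in lativitta HW 1, 2 and 3. Here himera HW 1 was the highest of its group. The difference was 6.73 (SE 0.99, edgeR adjusted p = 0.00803). It became 5.98 (SE 0.93, adjusted p = 0.0101) when himera HW 1 was left out. In FW it was 6.42 (SE 0.97, adjusted p = 0.0113). Petiverana HW, at 76.5, 86.8 and 81.2 CPM, lay within the himera range. The lativitta hindwings were thus the low group of the 3 taxa for this ID. Without lativitta HW 3 the call was lost (adjusted p = 0.0674).

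HEL_014346 had 0, 4.02 and 3.16 CPM in himera HW 1, 2 and 3, and 32.7, 17.3 and 91.1 in lativitta HW 1, 2 and 3. The groups were apart, although the lativitta libraries themselves spread widely. The difference was -4.18 (SE 0.86, edgeR adjusted p = 0.0306), compared with -3.70 (SE 0.74, adjusted p = 0.0319) when himera HW 1 was left out. In FW it was -4.17 (SE 0.87, adjusted p = 0.0416). Petiverana HW was at 3.96, 4.72 and 6.72 CPM, near the upper himera libraries and below each lativitta library. Leaving out 1 library ended the call for lativitta HW 3 (adjusted p = 0.132), lativitta HW 1 (0.105), himera HW 3 (0.0951) and himera HW 2 (0.0664). It also ended against a 1.5-fold change (0.0871).

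HEL_007078 had 1.18, 1.80 and 2.47 CPM in himera HW 1, 2 and 3, and 17.8, 23.7 and 19.9 in lativitta HW 1, 2 and 3. The lativitta group was tight, with a mean of 20.5 ± 2.99, and himera had a mean of 1.82 ± 0.645 (SD, n = 3 each). The himera values rest on 5, 39 and 25 reads in HW 1, 2 and 3. The difference was -3.45 (SE 0.60, edgeR adjusted p = 0.0193), and leaving out himera HW 1 gave -3.26 (SE 0.68, adjusted p = 0.037). In FW it was -3.57 (SE 0.61, adjusted p = 0.0188), and the interaction of 0.12 did not pass (adjusted p = 1). Petiverana HW was at 0.305, 0.727 and 1.54 CPM, so lativitta was the high group of the 3 taxa. The same 4 libraries decided the call, which had an adjusted p of 0.0757 without lativitta HW 3, 0.0748 without lativitta HW 1, 0.0694 without himera HW 3 and 0.0595 without himera HW 2.

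**Figure D1:**
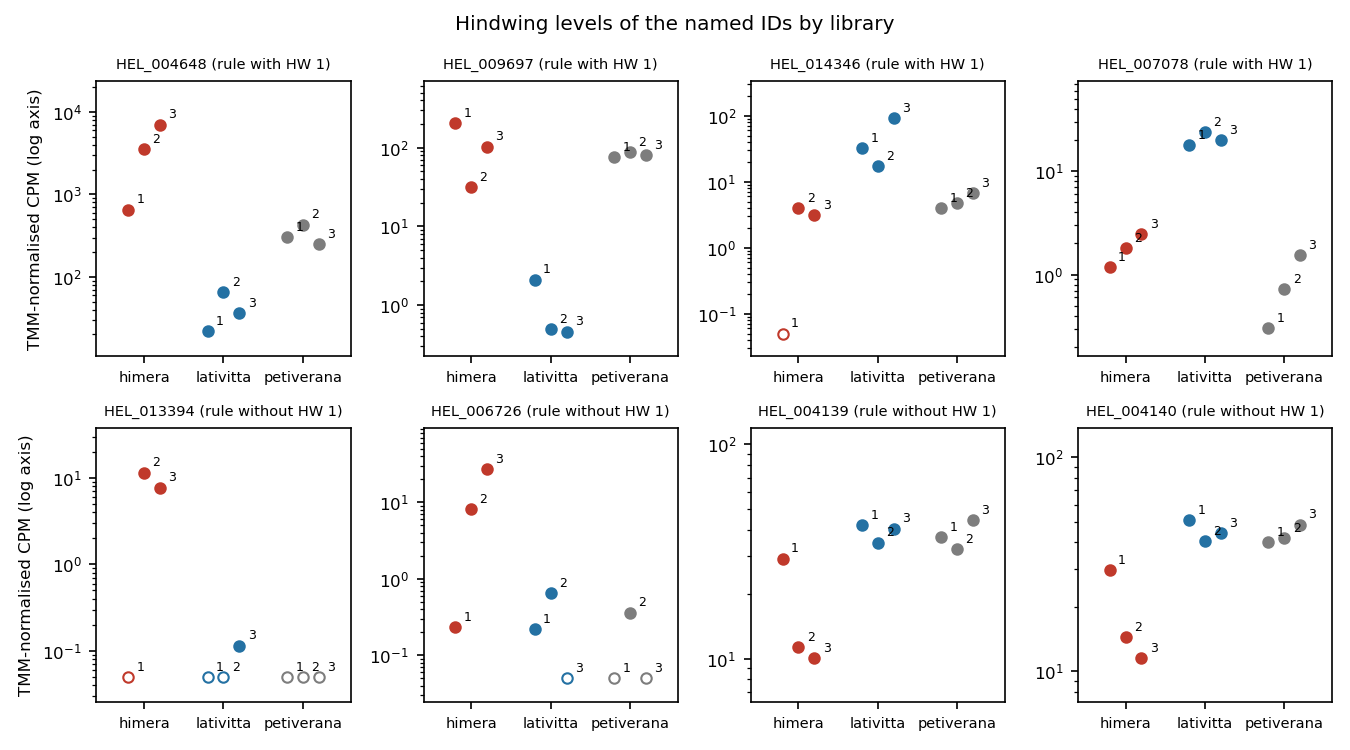
TMM-normalised CPM (log axis) of 8 named IDs in each hindwing library of himera, lativitta and petiverana; the digit beside a point is the library number, and open points at the foot of a panel had 0 reads. The upper row holds the 4 IDs called with and without himera HW 1, and the lower row those called only without it. Himera HW 1 lies outside the range of himera HW 2 and 3 for each ID in both rows, least so for HEL_007078.

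Over all IDs, 189 of 9957 passed, 1.90% of those tested. Of these, 94 (0.944%) were higher and 95 (0.954%) lower in himera. The median difference of the 94 was 1.95, with a range of 0.56 to 7.86, and that of the 95 was -1.40, with a range of -0.55 to -5.44. Over all IDs tested the median was 0.08. More than 4-fold differences were found for 44 of the 94 and 19 of the 95. The median level of the 94 was 49.5 CPM in himera and 14.6 in lativitta, and that of the 95 was 35.6 CPM in lativitta and 13.1 in himera. The lower group was under 1 CPM for 14 of the 94 (14.9%) and 4 of the 95 (4.21%), against 16.2% and 7.96% of all IDs on the same side of 0.

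Libraries of the groups did not overlap for each of the 189 called IDs. The same held for many more that did not pass. Himera lay above lativitta without overlap for 1444 IDs (14.5%) and below for 1498 (15.0%), of which the called IDs made up 6.51% and 6.34%. These counts rest on the scaling. In plain CPM, scaled by library total, the median of all IDs was -0.46 on the log2 scale (pseudocount 0.5) against 0.04 with TMM scaling, and himera lay above for 503 IDs and below for 3045. In plain CPM 56 of the 94 higher and 95 of the 95 lower IDs remained without overlap, and so did the 4 IDs above.

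The number of calls depended on which libraries were fitted, as the plot of calls by libraries fitted shows. Leaving out himera HW 1, 2 or 3 gave 137, 59 or 25 calls, and leaving out lativitta HW 1, 2 or 3 gave 6, 94 or 10. In a fit of the hindwings of the 3 taxa 0 IDs passed, 1747 had an unadjusted edgeR p under 0.05, and the adjusted p of the 4 IDs above was 0.068 to 0.139. In a fit of the 6 hindwing libraries alone 1 ID passed, 1784 had an unadjusted edgeR p under 0.05, and the adjusted p of the 4 IDs above was 0.0519 to 0.151. When the number 1 libraries were left out in himera and in petiverana, 1554 passed, 857 higher and 697 lower. That list held 189 of the 189 IDs called with all libraries.

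**Figure D2:**
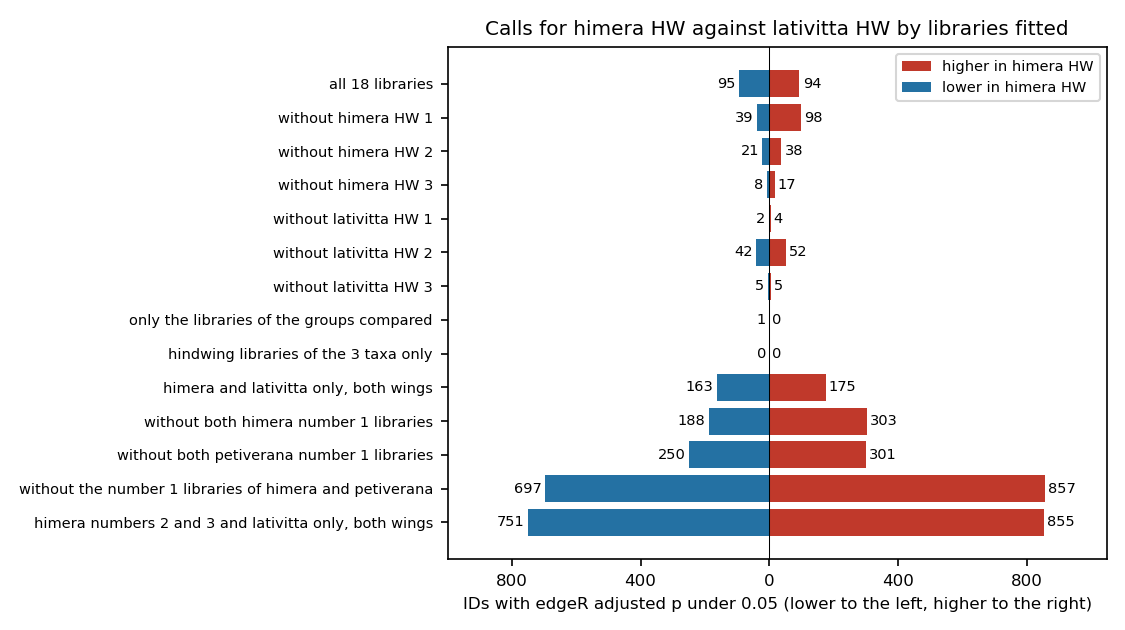
Number of IDs with an edgeR adjusted p under 0.05 for himera HW against lativitta HW, higher in himera to the right and lower to the left, by the libraries in the fit. The count runs from 0 with the hindwing libraries of the 3 taxa and 1 with the 6 hindwing libraries compared to 1606 with himera numbers 2 and 3 and lativitta of both wings.

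Without himera HW 1 the difference passed for 137 of 10304 IDs (1.33%), 98 higher in himera (0.951%) and 39 lower (0.378%). Higher IDs made up 71.5% of these edgeR calls, against 49.7% with himera HW 1. DESeq2 shifted the other way, with 62.8% of its calls higher with himera HW 1 (780 higher, 463 lower) and 55.2% without (393 higher, 319 lower). In the 7 edgeR fits of other library sets without himera HW 1 that kept the rest of the hindwings compared, the share was 53.2% to 83.5%. Called both with and without it were 90 IDs, 47.6% of the first list and 65.7% of the second, with 0 in opposite directions. Libraries of himera HW 2 and 3 lay above lativitta HW for 2561 IDs (24.9%) and below for 2376 (23.1%), the 137 called IDs among them. The 38 higher IDs called only with himera HW 1 had a median difference of 1.95 with it and 1.74 without, where their adjusted p reached at most 0.140. In 32 of the 38 (84.2%), himera HW 1 was the highest himera library, as it was in 63.6% of the higher IDs without overlap and 55.5% of all IDs on that side of 0. The 61 lower IDs called only with it had medians of -1.32 and -1.26, and in 43 of them (70.5%) himera HW 1 was the lowest, against 64.2% of the lower IDs without overlap and 58.4% of all IDs on that side.

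The 42 higher IDs called only without himera HW 1 had the reverse arrangement. Of these 39 were also tested with it, and in 25 himera HW 1 lay within or below the lativitta range. The median difference of these 39 was 1.77 with and 2.16 without himera HW 1. IDs that pass only when himera HW 1 is left out tend to be those in which it lies towards lativitta. The arrangement and the larger median thus follow largely from the selection, and a share over all IDs was not computed for the 25. Selection acts in the other direction on the IDs called only with himera HW 1. Lower IDs called only without it numbered 5, among them HEL_004139 and HEL_004140.

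HEL_013394 had 11.5 and 7.71 CPM in himera HW 2 and 3, from 249 and 78 reads, and 0 reads in himera HW 1. Lativitta HW held 1 read and petiverana HW 0. Himera HW 2 and 3 exceeded lativitta HW by a ratio of 245 (exact 95% interval 43.7 to 9722, counting error only), and the fitted difference was 7.41 (SE 1.42, edgeR adjusted p = 0.034). With himera HW 1 it was 6.84 (SE 1.80, adjusted p = 0.071). In FW the pattern over numbers was alike, with 1, 82 and 42 reads in himera FW 1, 2 and 3, and the FW difference of 6.37 (SE 1.78) did not pass (adjusted p = 0.102). Leaving out any further library of the 5 compared ended the call (adjusted p 0.0862 to 0.179), as did a test against a 1.5-fold change (0.0696).

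HEL_006726 was at 8.14 and 27.4 CPM in himera HW 2 and 3, while himera HW 1, at 0.236 CPM from 1 read, lay within the lativitta range of 0 to 0.653 CPM. The difference was 5.97 (SE 1.33, edgeR adjusted p = 0.0486) without himera HW 1 and 5.40 (SE 1.54, adjusted p = 0.0831) with it. In FW himera had 0, 28 and 48 reads in FW 1, 2 and 3, and the difference of 1.87 (SE 1.32) did not pass (adjusted p = 0.451). The HW call was lost without any further library of the 5 compared (adjusted p 0.0712 to 0.358), with upper-quartile scaling (0.0528), without a filter (0.0607), in a fit of the hindwings of the 3 taxa (0.0533), with the replicate block (0.0731) and against a 1.5-fold change (0.102).

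HEL_004139 was at 11.3 and 10.1 CPM in himera HW 2 and 3, and at 42.1, 34.8 and 40.5 in lativitta HW 1, 2 and 3. Himera HW 1, at 29.3 CPM, lay between. Petiverana HW had 36.9, 32.3 and 44.3 CPM, so himera HW 2 and 3 were the low libraries of the hindwings. The difference was -1.87 (SE 0.23, edgeR adjusted p = 0.00314) without himera HW 1 and -1.23 (SE 0.33, adjusted p = 0.0699) with it. The FW difference of -0.81 (SE 0.33) did not pass (adjusted p = 0.193). The call was lost when himera HW 3 was left out as well (adjusted p = 0.084), where the 1 remaining himera library is assumed to vary like the other groups.

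HEL_004140 had 14.5 and 11.6 CPM in himera HW 2 and 3, 29.8 in himera HW 1, and 50.8, 40.7 and 44.2 in lativitta HW 1, 2 and 3. The order of the libraries matched that of HEL_004139, with himera HW 1 between the others of its taxon and lativitta. The difference was -1.80 (SE 0.27, edgeR adjusted p = 0.0087) without himera HW 1 and -1.29 (SE 0.32, adjusted p = 0.0545) with it. In FW it was -0.87 (SE 0.31) and did not pass (adjusted p = 0.155). The call was lost when himera HW 2 (adjusted p = 0.0682) or HW 3 (0.166) was left out as well.

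Many large differences that did not pass were smaller without himera HW 1. More than 4-fold higher in himera were 982 IDs with himera HW 1, of which 44 passed. Without himera HW 1, 412 of the 982 kept a difference of over 4-fold in the same direction, 310 differed by less than 2-fold and 205 had the opposite sign. The last 2 counts overlap, since some IDs with the opposite sign differed by less than 2-fold. An example is HEL_000193, at 6.43 with himera HW 1 and -0.75 without. A further 72 became over 4-fold higher, and the largest difference in this direction was 14.95 with himera HW 1 and 8.41 without. More than 4-fold lower were 183 IDs with it, of which 133 kept over 4-fold without it, 0 were under 2-fold and 0 had the opposite sign. Leaving out 1 of 3 libraries can raise a group mean only by a limited factor, but can lower it by any factor. Both counts of 0 were thus fixed beforehand, and the 2 directions cannot be compared on them. A further 110 became over 4-fold lower, and the largest difference was -9.99 with and -11.60 without. Across the 9957 IDs, himera HW 1 differed from the mean of himera HW 2 and 3 by more than 2-fold in 3693 (37.1%). It did so in 29 of the 94 higher calls (30.9%), against 45.2% of all IDs on the higher side, and in 10 of the 95 lower calls (10.5%), against 27.3% of all IDs on the lower side. The test divides a difference by the spread within groups, so IDs whose himera libraries disagree are less likely to pass, and these 2 shares are a description.

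**Figure D3:**
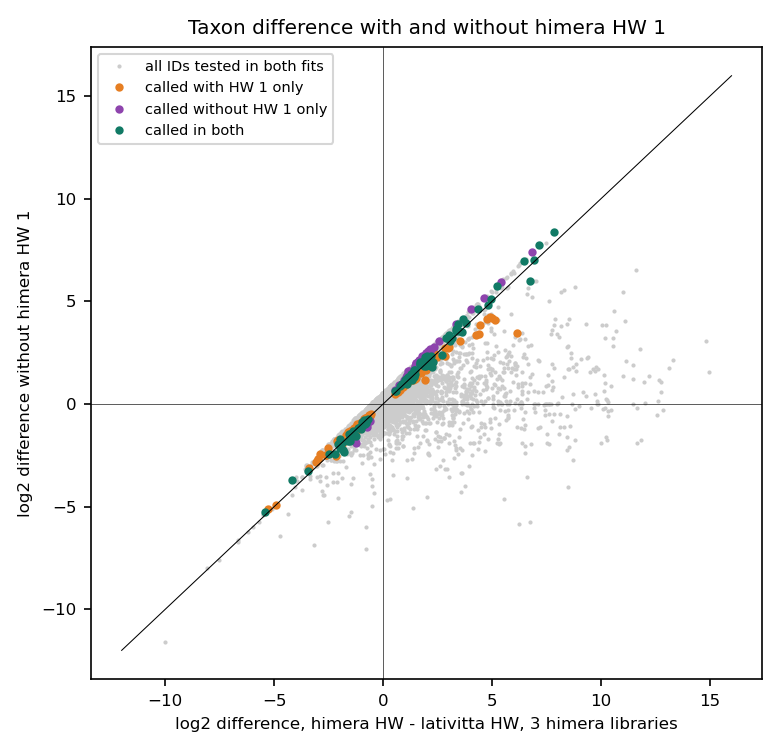
Log2 difference of himera HW minus lativitta HW for each ID with 3 himera libraries (horizontal) and without himera HW 1 (vertical), with the line of equality. The 189 IDs called with all libraries lie a median of 0.14 and at most 2.69 from equality on the log2 scale, while grey points reach 14.95 horizontally at low values vertically. IDs whose himera libraries disagree are less likely to pass, so the nearness of these 189 to the line follows in part from the calling.

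The same taxa were compared in FW, in libraries that may come from the same animals. The FW libraries entered the hindwing fit through the shared spread but not the difference. IDs whose FW libraries scatter little are thus more likely to be called in HW. The FW shares of the called IDs below are therefore not independent of the calls. Himera FW 1 stood apart there much as himera HW 1 did, with 30.7% of gene reads in the 10 most abundant IDs against 9.67% and 11.1% in himera FW 2 and 3. Of the 94 higher IDs 93 had the same sign in FW, and so did 95 of the 95 lower. The median FW difference was 1.42 for the higher and -1.09 for the lower IDs, against 1.95 and -1.40 in HW. The sign was also the same for 96.1% and 96.3% of the IDs without overlap in HW, and for 84.9% and 81.8% of all IDs on either side of 0. FW libraries of the taxa did not overlap, on the same side, for 85 of the 94 (90.4%) and 90 of the 95 (94.7%), against 13.6% of all IDs above and 13.7% below. Among the IDs without overlap in HW, which the called IDs all are, the shares were 56.1% and 55.9%. Without himera FW 1, an alternative chosen after seeing the data, the counts were 87 of the 94 and 90 of the 95, against 23.5% and 22.2% of all IDs and 60.5% and 61.3% of those without overlap in HW, and the sign was the same for 93 and 95. In the FW test 33 of the 94 and 30 of the 95 passed, against 0.472% and 0.462% of all IDs. Of the 98 higher and 39 lower IDs called without himera HW 1, 89 and 39 had the same sign in FW. In the fit of all libraries this held for 84.9% and 81.8% of all IDs. FW libraries lay apart on the same side for 60 of the 98 and 37 of the 39, against 13.3% and 13.7% of the IDs tested there. The closer background, IDs whose himera HW 2 and 3 did not overlap lativitta HW, as held for all of these, was not computed. The test of the difference between the wings found 0 IDs in edgeR (0.00%) and 7 in DESeq2. In edgeR 67 of the 9957 IDs had an unadjusted p under 0.05, which is less than a share of 0.05. A share of about 0.05 would be reached with no difference between the wings, so the edgeR test was conservative here. Its 0 calls thus do not show that the wings agree. More IDs had an unadjusted p under 0.05 when himera HW 1, or number 1 of both himera and petiverana, was left out. In edgeR fits without number 1 of both himera and petiverana, and with himera numbers 2 and 3 and lativitta alone, 1 ID passed each.

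**Figure D4:**
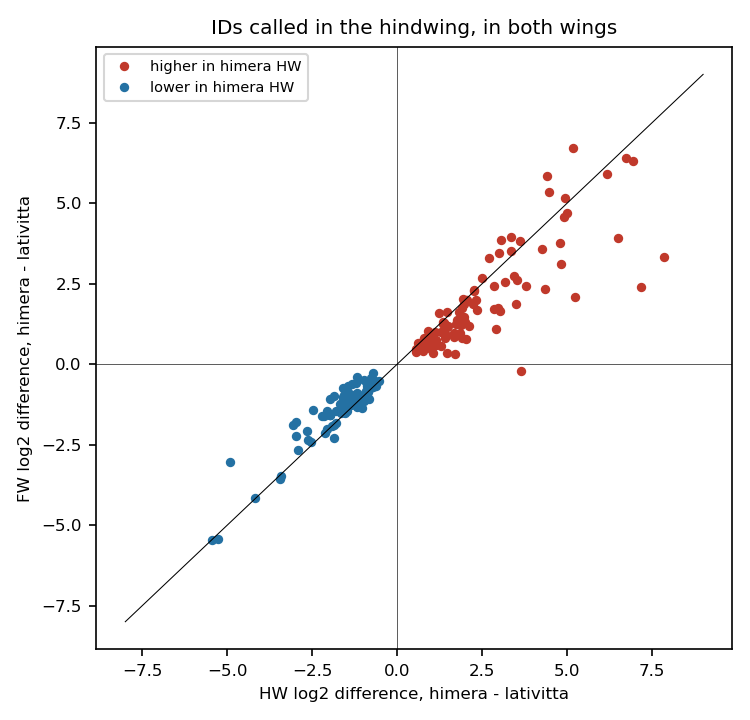
Log2 difference of himera minus lativitta in HW (horizontal) and FW (vertical) for the 189 IDs called in HW, with the line of equality. Of the 94 higher IDs 93 lie above 0 in FW, and 95 of the 95 lower IDs lie below 0.

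Petiverana HW gave a level from another taxon for each called ID. Its libraries entered the fit through the shared spread but not the difference. For the lower IDs, the 3 petiverana libraries lay below each lativitta library, without lying above each himera library, in 65 of 95 (68.4%), so lativitta was the high taxon for them. They lay between the taxa for 11 (11.6%) and on the lativitta side of each himera library for 15 (15.8%). For the higher IDs, petiverana was on the himera side in 48 of 94 (51.1%), between in 14 (14.9%) and on the lativitta side in 29 (30.9%). Among all IDs whose himera and lativitta hindwings did not overlap, petiverana was on the himera side in 55.5% of the lower and 51.7% of the higher, between in 1.27% and 1.39%, and on the lativitta side in 14.8% and 18.4%. The spread within petiverana entered the fit, so these shares are not independent of the calls. The list made without himera HW 1 had other shares. For its 98 higher IDs petiverana was on the himera side of lativitta in 16 (16.3%), between in 25 (25.5%) and on the lativitta side of himera HW 2 and 3 in 57 (58.2%). For its 39 lower IDs the counts were 20 (51.3%), 9 (23.1%) and 10 (25.6%). Over all IDs without overlap of himera HW 2 and 3 with lativitta HW, the shares in the same order were 34.3%, 1.95% and 38.1% of the higher and 39.7%, 1.39% and 30.9% of the lower.

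**Figure D5:**
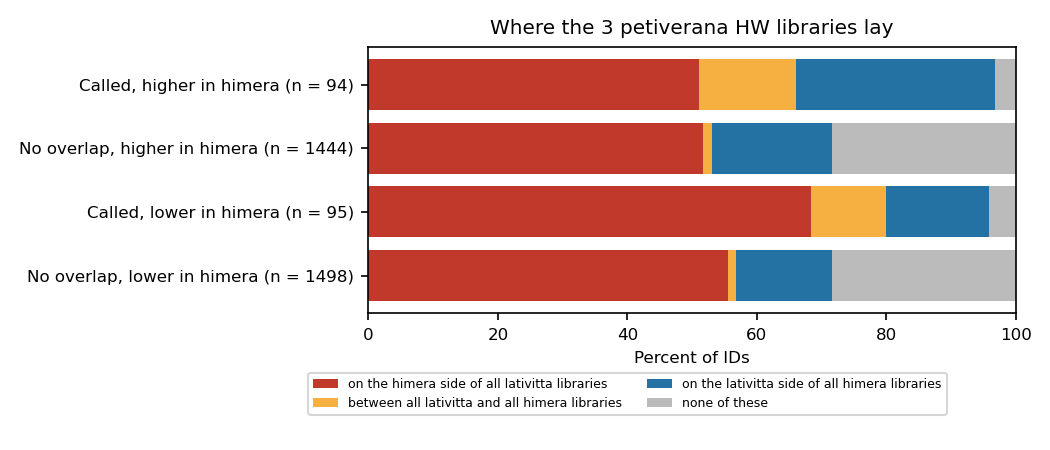
Percent of IDs by where the 3 petiverana hindwing libraries lay relative to the himera and lativitta hindwings, for called IDs and for all IDs without overlap between the taxa. Petiverana lay on the himera side for 68.4% of the called lower and 51.1% of the called higher IDs.

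Some IDs were read in the hindwings of only 1 of the 2 taxa compared. In each himera HW library and in 0 lativitta HW libraries, at least 1 read was found for 93 of 14612 IDs (0.636%), and the reverse held for 13 (0.0890%). Most had few reads, with a median of 8 over the himera group and 5 over the lativitta group, and himera HW was sequenced more deeply. With at least 5 reads in each library the counts were 9 and 0. These 9 held 36 to 671 reads in himera HW and all had reads in petiverana HW, and himera HW 1 was the highest himera library for 7 of them. HEL_013126, named here after its values were seen, was the 1 of the 9 that passed (edgeR adjusted p = 0.0203). It had 8, 29 and 26 reads in himera HW 1, 2 and 3, at least 10.8-fold more per gene read than the floor of 3 reads over the lativitta group.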

How the data were processed

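The authors deposited raw counts of reads, 1 file per library, with no normalisation. The submitters' processing notes name TopHat, bedtools and DESeq2, with neither versions nor roles. Genome build, annotation and strand setting: not given in the sources used here. Poly-A selected RNA went into libraries with an NEB kit, per the labels' protocols. Each file listed 14612 IDs and 5 summary rows. The summary rows held 51.1% to 56.9% of the reads in the 6 libraries and were not used. The part of unequal alignment of the taxa to 1 list of IDs was not tested, and IDs of overlapping or near-identical genes are uncertain.

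The comparison, the alternatives and the rule for named IDs were chosen with earlier results of these data known. The rule took 2 IDs per direction called with and without himera HW 1, without overlap, with at least 5 CPM in each library of the higher group, ranked by the smaller absolute log2 difference. For the comparison without himera HW 1 it took 2 per direction called only there. Preset gene lists could not be used without gene names.

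R 4.3.3 and edgeR 4.0.16 (filterByExpr on 6 groups, TMM factors, glmQLFit, glmQLFTest) were run on all 18 libraries, with 12 residual degrees of freedom and a common dispersion of 0.361. P-values were adjusted by Benjamini-Hochberg over the IDs tested, with a threshold of 0.05, and SE is derived from the quasi-likelihood F. Filter and scaling were repeated for the 17 libraries without himera HW 1. The steps were tested on simulated data in which no library stood apart as himera HW 1 does, so that test does not cover such a library. DESeq2 1.42.0 and other scalings, filters and library sets were alternatives. Replicates differed by more than sampling noise, with a chi-square per degree of freedom of 15.9 or more in each pair.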

Additional observations from a re-analysis of the deposited data

How the results depend on the processing

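For himera HW against lativitta HW the 189 calls became 1243 with DESeq2 (780 higher, 463 lower), 97 without a filter and 20 against a 1.5-fold change. Upper-quartile factors gave 61 higher and 87 lower, with a median of all IDs of -0.02 against 0.08. By libraries, the count was 1 with the groups compared alone, 0 with the hindwings of the 3 taxa (1747 at an unadjusted p under 0.05), 338 with himera and lativitta of both wings, 491 without both himera number 1 libraries, 551 without both petiverana number 1 libraries, 1554 without number 1 of both himera and petiverana, and 1606 with himera numbers 2 and 3 and lativitta. Fits that left out 1 library gave 6 to 137. Without himera HW 1, the 137 calls became 712 with DESeq2 (393 higher, 319 lower), 86 without a filter, 36 against a 1.5-fold change, 928 with the groups compared alone, 320 with himera and lativitta of both wings, 491 without himera FW 1 too, 505 without both petiverana number 1 libraries, 1554 without all of these, 1606 with himera numbers 2 and 3 and lativitta, and 4 to 95 when 1 further library was left out. The fits with himera and lativitta alone and without petiverana number 1 were chosen after seeing the data. The causes of these changes were not tested.

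For the difference between wings, the count of 0 became 7 with DESeq2. It was 1 without number 1 of both himera and petiverana, 1 with himera numbers 2 and 3 and lativitta, and 0 to 0 when 1 library was left out. The edgeR test was conservative in the fit of all libraries, so its count of 0 does not show that the wings agree. IDs read in each library of 1 group and unread in the other numbered 106, and 9 at 5 reads in each library. Each of the 8 named IDs kept its direction under every alternative run. They were chosen for large differences without overlap, so a kept direction follows largely from that choice and is no separate support. The call was lost in 39 of 156 pairs of a named ID and an alternative.

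Deviations of himera and lativitta hindwings with the same number correlated at 0.07, 0.07 and -0.04 for numbers 1, 2 and 3. For himera HW 1 and 2, but not HW 3, the lativitta library of the same number was the best match. With 3 libraries per taxon, values this small cannot decide whether equal numbers pair the taxa. With the replicate block 353 IDs passed (188 higher, 165 lower), 148 without himera HW 1 and 0 for the difference between wings, and HEL_006726 lost its call (adjusted p = 0.0731).

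Depth limits low IDs: 3 reads over a group correspond to 0.182 CPM in lativitta HW and 0.0935 in himera HW, for counting error only.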

Other observations

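The called IDs took a small part of each library. The 94 IDs higher in himera held 1.26%, 2.19% and 2.86% of gene reads in himera HW 1, 2 and 3, against 0.352% to 0.524% in lativitta HW and 0.771% to 1.28% in petiverana HW. The 95 lower IDs held 0.754% to 1.13% in lativitta HW, 0.164% in himera HW 1, and 0.353% and 0.370% in himera HW 3 and 2. For both lists this unscaled share in himera HW 1 was closer to that in petiverana HW than to that in himera HW 2 and 3. The TMM factors were 0.619 in himera HW 1, 0.522 to 0.730 in petiverana HW, and 1.23 to 1.27 in himera HW 2 and 3. The shares are thus not on the scale of the CPM levels above, where this closeness need not hold.

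Of the 2942 IDs without overlap in HW, 8 had no overlap in FW either but himera on the opposite side of lativitta. Among the 189 called in HW were 0 of these 8. The called IDs made up only 6.51% (himera above) and 6.34% (below) of the IDs without overlap in HW, so 0 of 8 is not informative.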
